A study of Mus musculus with 12 samples.

Results

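The 10 receptors described here are G protein-coupled receptors that tune insulin secretion: Glp1r, Gipr, Gcgr, Ffar1, Gpr119, Adra2a, Chrm3, Sstr3, Casr and P2ry1. They were chosen by name, with earlier results of these data known. All 10 were found among the 24421 genes of the count data. All 10 also passed the filter on low counts, which left 13583 genes to test. Total RNA was taken from pancreatic islets, the hormone-secreting cell clusters of the pancreas, after the mice had eaten high-fat food over 6 weeks. There were 12 libraries, 6 of them from Il22ra1βKO mice (BKO), in which the interleukin-22 receptor subunit Il22ra1 is deleted in β cells, the insulin-producing cells. The other 6 came from Ins2Cre mice (Cre), which carry the insulin promoter-driven recombinase without that deletion as far as the labels say. The labels give neither the sex or age of the mice nor a group without the recombinase, and whether libraries are separate animals is not stated. The p-values therefore measure the spread between these samples.

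Glucose sets the pace of insulin release, and surface receptors of the β cell raise or lower it. Glp1r, Gipr, Gcgr and Gpr119 couple to the stimulatory G protein Gs and raise cyclic AMP, which amplifies secretion once glucose is high. Ffar1, Chrm3, P2ry1 and Casr act largely through Gq and phospholipase C, which release calcium from stores. Adra2a and Sstr3 couple to inhibitory G proteins and restrain secretion.

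In this comparison Glp1r, the receptor of glucagon-like peptide 1, stood lowest in BKO islets relative to Cre islets, with a mean of 211 ± 17.3 CPM (reads per 1e+06 gene reads) in BKO against 269 ± 27.4 CPM in Cre (± SD, n = 6 each). P2ry1, Casr and Sstr3 had the next most negative log2 fold changes, and the other 6 receptors differed by less than 0.11 in size on the log2 scale. No receptor, and no gene of the 13583, passed the edgeR quasi-likelihood test after Benjamini-Hochberg adjustment at 0.05, while DESeq2 called Glp1r among 214 genes. All CPM values use library sizes scaled by the trimmed mean of M-values (TMM). Because whole islets were sequenced, fewer β cells and less receptor mRNA per β cell cannot be told apart.

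The promoter windows of the 3 receptors with an edgeR p under 0.05 before adjustment are shown first, as the sequence next to each gene's start. They come from RefSeq (GRCm38, the mm10 build) and run 5′ to 3′ on the gene's strand, up to the base before the first annotated transcript start. Capitals mark a GC box, GGGCGG or its reverse complement CCGCCC.

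Glp1r, chr17:30901617-30901816, plus strand: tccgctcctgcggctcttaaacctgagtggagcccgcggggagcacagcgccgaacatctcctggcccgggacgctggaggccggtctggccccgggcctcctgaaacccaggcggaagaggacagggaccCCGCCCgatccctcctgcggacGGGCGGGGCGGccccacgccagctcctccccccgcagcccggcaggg
P2ry1, chr3:61002535-61002784, plus strand: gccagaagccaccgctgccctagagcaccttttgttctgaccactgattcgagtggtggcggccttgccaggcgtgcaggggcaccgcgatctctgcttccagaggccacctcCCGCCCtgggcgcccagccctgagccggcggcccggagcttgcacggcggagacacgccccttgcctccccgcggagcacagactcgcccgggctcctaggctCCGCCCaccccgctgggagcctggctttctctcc
Casr, chr16:36562142-36562384, minus strand: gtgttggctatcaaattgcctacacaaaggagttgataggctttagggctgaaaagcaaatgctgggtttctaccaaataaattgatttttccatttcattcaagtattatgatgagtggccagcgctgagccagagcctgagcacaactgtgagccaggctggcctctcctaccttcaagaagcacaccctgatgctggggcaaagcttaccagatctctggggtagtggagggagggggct

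The Glp1r stretch of 200 bases holds 3 GC boxes, of which the last 2 share 1 base, and 75% of its bases are G or C. The P2ry1 stretch of 250 bases holds 2 GC boxes at 70.8% G or C. The Casr stretch of 243 bases holds none, at 49.0% G or C. Over all 32851 windows of 300 bases in the RefSeq table, 35.7% held a GC box on either strand and the median G or C content was 52.7%. The table held 10 windows for 9 of the receptors, and 4 of these windows (Glp1r, P2ry1, Gcgr and Adra2a) held a GC box. Gipr was not matched. A TATA box (TATAAA), searched on both strands like the motifs that follow, stood in 13.6% of all windows. A CCAAT box, spelled CCAAT, stood in 37.4% of them. The core of a cyclic AMP response element (TGACG) stood in 20.8%. None of these stood in the windows of Glp1r, P2ry1 and Casr. The search describes letters and says nothing about binding.

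Gene reads per library numbered 10356093 to 11902217 in BKO and 11444273 to 12397139 in Cre. The targeted gene Il22ra1 had 1 to 3 reads per BKO library and 1 to 5 per Cre library, so whole-islet counts at this depth do not check the deletion. The insulin genes were abundant in both groups: Ins1 averaged 25632 CPM in BKO and 29546 CPM in Cre, and Ins2 averaged 71213 CPM in BKO and 74804 CPM in Cre. Library Cre-1 stood apart, with 27.3% of its counted reads in the low-alignment-quality class against 16.7% to 22.2% in the other 11 libraries. It had the lowest Cre value of Glp1r, P2ry1, Casr, Sstr3, Adra2a and Ffar1, and the values of these receptors without it stand beside the others. Cre-1 also had the highest Cre value of Gipr. Without Cre-1 the log2 fold change was 0.14 for Gipr, 0.15 for Gcgr, -0.11 for Gpr119 and -0.09 for Chrm3.

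Levels of different receptors were compared per kb of exon, with the lengths of the GENCODE exon union. Sstr3 and Glp1r were the most abundant receptor mRNAs, at 49.8 ± 1.73 and 36.3 ± 2.98 CPM per kb in BKO and at 54.3 ± 4.92 and 46.2 ± 4.72 CPM per kb in Cre. A second tier held Casr, Adra2a, Ffar1, Gipr, Gpr119 and Gcgr, between 11.3 and 17.6 CPM per kb in BKO and between 10.6 and 17.9 CPM per kb in Cre. P2ry1 followed at 8.60 ± 1.22 CPM per kb in BKO and 10.5 ± 0.78 CPM per kb in Cre. Chrm3 was lowest at 6.00 ± 0.46 CPM per kb in BKO and 6.23 ± 0.44 CPM per kb in Cre. Over the 12 libraries the ranges of neighbours in this order overlapped at 7 of 9 steps. The 2 steps without overlap were Glp1r above Casr and P2ry1 above Chrm3. The order depends on the length used. Per kb of coding sequence Glp1r and Sstr3 still led, but Casr, the receptor with the longest coding sequence (3237 bases), moved from the third place to the eighth. P2ry1 moved from place 9 to place 5. Gcgr was then lowest, at 20.3 CPM per coding kb in BKO and 19.1 in Cre, against 21.2 and 22.0 for Chrm3.

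**Figure D1:**
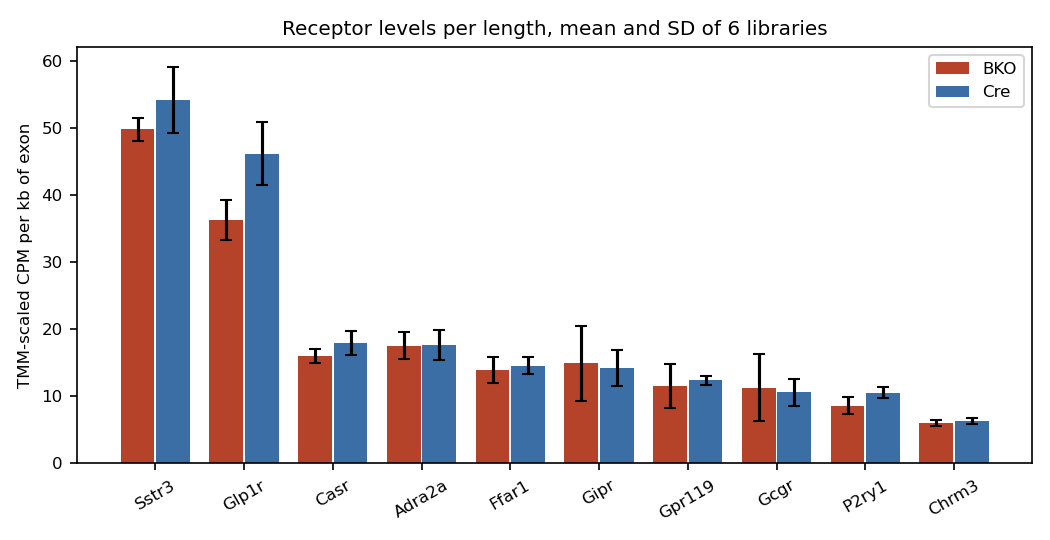
Receptor mRNA per kb of exon (vertical axis, TMM-scaled CPM per kb) in BKO and Cre islets, ordered by the Cre mean, with bars as means of 6 libraries and error bars as SD. Sstr3 and Glp1r stand above 36 CPM per kb in both groups and Chrm3 is lowest.

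Glp1r (chromosome 17, 30901817 to 30940791, plus strand, GRCm38, ENSMUSG00000024027.8) encodes the target of the incretin hormone GLP-1, the gut peptide whose mimics are used to treat diabetes and obesity. It had 227, 204, 209.6, 220.2, 180.5 and 224 CPM in BKO-1 to BKO-6, against 226, 304, 260.4, 292, 261 and 268 CPM in Cre-1 to Cre-6. All 6 BKO libraries lay below the Cre mean and 5 of them lay below every Cre library, with BKO-1 and Cre-1 almost level. The log2 fold change was -0.35 ± 0.071 (SE), a mean 21.4% lower in BKO. The edgeR quasi-likelihood p was 1.2e-04 before and 0.121 after Benjamini-Hochberg adjustment over all genes. This adjusted value was the smallest of any gene and was shared by 33 genes, among which Glp1r ranked 10th by p. The exact two-sided permutation test over the 924 ways to divide the libraries gave p = 0.00433 for Glp1r, where the smallest possible is 0.00216. DESeq2 gave an adjusted p of 0.00521. Of all genes with an adjusted p, DESeq2 called 0.379% lower in BKO, 54 of 14237.

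Without Cre-1, the groups no longer overlapped: the highest BKO library stood at 227 CPM and the lowest remaining Cre library at 260.4 CPM. The Glp1r fold change was then -0.41 on the log2 scale, with an edgeR adjusted p of 0.0439. Among all genes tested, 0.177% had every BKO library below every Cre library, and 0.942% did so once Cre-1 was set aside. Glp1r also passed with edgeR when BKO-4 or Cre-5 was left out, with adjusted p of 0.0259 and 0.0389. These fits called 262 and 110 genes in all, and the fit without Cre-1 called 6. Glp1r did not pass with any other library left out, where its edgeR adjusted p reached 0.347 (without BKO-2).

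Gipr (chromosome 7, 19156061 to 19166127, minus strand) encodes the receptor of the other incretin, GIP. Its values were 82.8, 42.0, 59.8, 33.1, 59.7 and 33.8 CPM in BKO-1 to BKO-6, against 64.7, 55.3, 43.9, 40.6, 40.5 and 51.9 CPM in Cre-1 to Cre-6. The BKO libraries both exceeded and undercut the whole Cre range, with a coefficient of variation of 37.2% in BKO and 19.4% in Cre. The log2 fold change of 0.07 ± 0.23 (SE) did not pass (edgeR adjusted p = 0.945).

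Gcgr (chromosome 11, 120530699 to 120538986, plus strand) encodes the glucagon receptor, through which α-cell glucagon can stimulate β cells. It had 51.5, 23.1, 37.2, 14.8, 28.8 and 22.0 CPM in BKO-1 to BKO-6, against 34.6, 34.7, 23.5, 25.5, 24.8 and 23.4 CPM in Cre-1 to Cre-6. BKO-1 was the highest and BKO-4 the lowest of all 12 libraries, as for Gipr. Its log2 fold change was 0.09 ± 0.27 (SE; edgeR adjusted p = 0.934), and the coefficient of variation was 44.2% in BKO and 19.5% in Cre. Leaving out BKO-1 turned the sign of both genes, to -0.12 for Gipr and -0.15 for Gcgr, and so did limma-voom with quality weights, to -0.09 and -0.08.

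Gpr119 (X chromosome, 48667979 to 48674478, minus strand) encodes a receptor for lipid amides and monoacylglycerols. Its values were 35.9, 24.0, 32.5, 22.4, 15.2 and 26.4 CPM in BKO-1 to BKO-6, against 29.7, 27.2, 26.1, 27.8, 30.4 and 27.2 CPM in Cre-1 to Cre-6. The Cre libraries sat in a narrow band that the BKO libraries spanned on both sides, with a coefficient of variation of 28.3% in BKO and 5.77% in Cre. No test compared the spreads. The log2 fold change was -0.11 ± 0.15 (SE; edgeR adjusted p = 0.843). It was -0.23 without BKO-1 and -0.0046 without BKO-5.

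**Figure D2:**
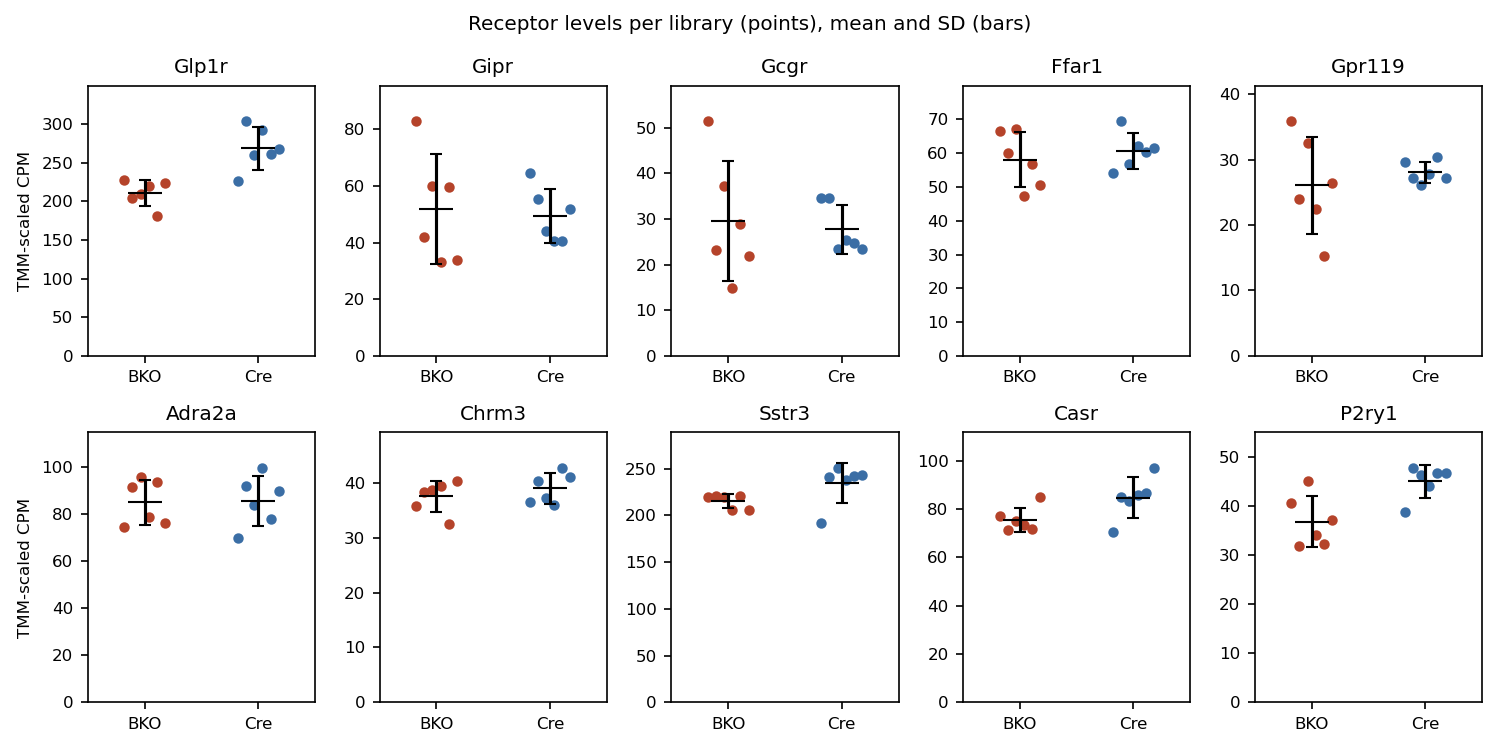
Level of each receptor in every library (vertical axes, TMM-scaled CPM, from 0), with BKO and Cre as columns of 6 points and black bars for the mean and SD. Glp1r and P2ry1 show BKO points mostly below the Cre points, and Gipr, Gcgr and Gpr119 show a wider BKO spread.

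Of the Gq-coupled receptors, P2ry1 and Casr had an edgeR p under 0.05 before adjustment, and Ffar1 and Chrm3 did not. P2ry1 (chromosome 3, 61002795 to 61008982, plus strand) encodes a receptor for extracellular ADP, a nucleotide released with insulin granules. It had 40.8, 31.9, 45.1, 34.1, 32.3 and 37.3 CPM in BKO-1 to BKO-6, against 38.8, 47.9, 46.5, 44.1, 46.8 and 46.8 CPM in Cre-1 to Cre-6. All 6 BKO libraries lay below the Cre mean and 4 lay below every Cre library. The log2 fold change was -0.29 ± 0.084 (SE), with an edgeR p of 0.00278 before and 0.169 after adjustment. The exact two-sided permutation p was 0.0173, and the DESeq2 adjusted p was 0.0550. Without Cre-1 the fold change was -0.35 (edgeR adjusted p = 0.0850). An exon of P2ry1 overlaps Gm37035 on the opposite strand, and whether the counting used strand is unknown here, so reads of the 2 genes may not be separable.

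Casr (chromosome 16, 36493696 to 36562141, minus strand) encodes the calcium-sensing receptor. It had 76.9, 71.2, 75.2, 73.3, 71.8 and 84.8 CPM in BKO-1 to BKO-6, against 70.4, 84.8, 83.4, 85.7, 86.7 and 97.0 CPM in Cre-1 to Cre-6. Cre-1 was the lowest of all 12 libraries, and 5 of 6 BKO libraries lay below the Cre mean. The log2 fold change was -0.16 ± 0.067 (SE), with an edgeR p of 0.0239 before and 0.294 after adjustment and an exact permutation p of 0.0584. Without Cre-1 it was -0.23 (edgeR adjusted p = 0.0916). Without Cre-6 it was -0.13, and the p before adjustment was 0.0611.

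Ffar1 (chromosome 7, 30857390 to 30861564, minus strand) encodes GPR40, the receptor for long-chain fatty acids. It had 66.5, 60.2, 67.0, 47.2, 56.8 and 50.5 CPM in BKO-1 to BKO-6, against 54.2, 69.4, 56.6, 62.1, 60.3 and 61.6 CPM in Cre-1 to Cre-6. The groups overlapped over most of their range, and the log2 fold change was -0.06 ± 0.085 (SE; edgeR adjusted p = 0.821) and -0.11 without Cre-1 (0.547). Chrm3 (chromosome 13, 9875486 to 10360847, minus strand) encodes the muscarinic M3 receptor for acetylcholine, the parasympathetic transmitter. It had 35.8, 38.2, 38.7, 39.4, 32.5 and 40.4 CPM in BKO-1 to BKO-6, against 36.5, 40.3, 37.3, 35.9, 42.7 and 41.1 CPM in Cre-1 to Cre-6. Chrm3 was among the steadiest receptors, with a coefficient of variation of 7.68% in BKO and 7.14% in Cre and a log2 fold change of -0.06 ± 0.066 (SE; edgeR adjusted p = 0.792).

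The inhibitory pair differed from each other in level and spread. Sstr3 (chromosome 15, 78537008 to 78544685, minus strand) encodes a somatostatin receptor that sits on the primary cilium of β cells. It had 219, 221, 219.7, 206, 220.3 and 205 CPM in BKO-1 to BKO-6, against 192, 241, 251, 237, 242 and 244 CPM in Cre-1 to Cre-6. The BKO libraries lay close together, between 205 and 221 CPM, and below all Cre libraries other than Cre-1, which was the lowest of the 12. The log2 fold change was -0.12 ± 0.059 (SE), with an edgeR p of 0.0535 before and 0.385 after adjustment and an exact permutation p of 0.0779. Without Cre-1 the groups no longer overlapped, with a BKO maximum of 221 CPM and a Cre minimum of 237 CPM. The Sstr3 fold change was then -0.19 (edgeR adjusted p = 0.0808). Among all genes tested, 0.942% had every BKO library below every Cre library other than Cre-1. Adra2a (chromosome 19, 54044151 to 54048982, plus strand) encodes the α2A-adrenergic receptor, through which noradrenaline shuts down insulin release. It had 74.5, 91.2, 95.4, 78.7, 93.5 and 76.0 CPM in BKO-1 to BKO-6, against 69.9, 91.8, 83.8, 99.5, 77.6 and 89.7 CPM in Cre-1 to Cre-6. All BKO values fell inside the Cre range, and the log2 fold change was -0.01 ± 0.086 (SE; edgeR adjusted p = 0.984) and -0.08 without Cre-1 (0.672).

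Across the 10 receptors, 8 log2 fold changes were negative and 2 positive, with a median of -0.09. Over all 13583 genes tested, 47.2% were negative and the median was 0.01. edgeR called 0 receptors lower and 0 higher, as it called 0% of all genes in either direction. Before adjustment, 3 receptors had a p under 0.05 with a lower value in BKO (Glp1r, P2ry1 and Casr) and 0 with a higher one. The shares of all genes were 4.66% lower and 8.70% higher. DESeq2 called 1 receptor, Glp1r. In none of the 10 receptors did all BKO libraries lie below all Cre libraries, an ordering seen in 0.177% of all genes tested.

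**Figure D3:**
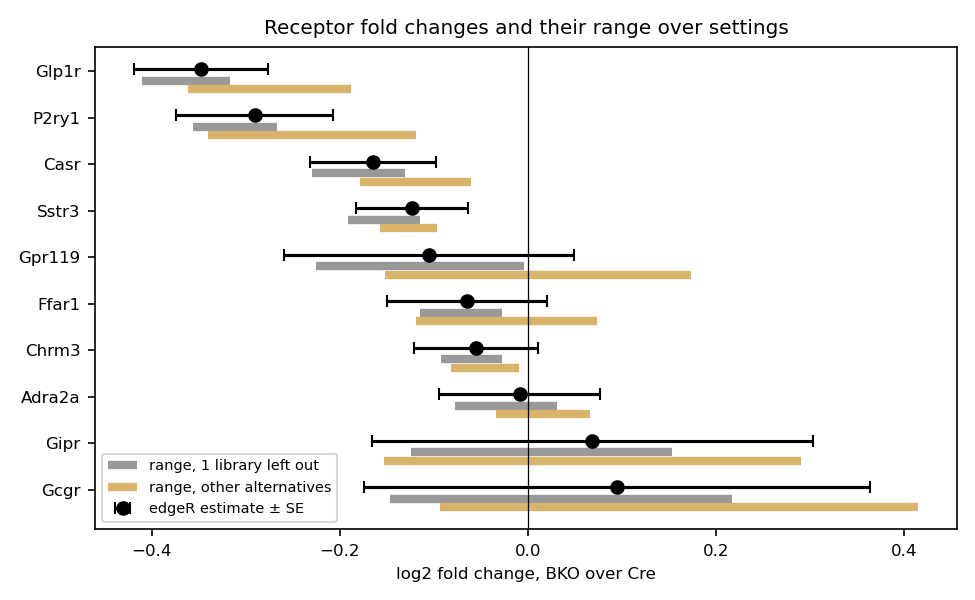
Log2 fold change of each receptor, BKO over Cre (horizontal axis), with points and whiskers for the edgeR estimate and its SE, grey bars the range when 1 library is left out, and tan bars the range over the other alternatives. Glp1r, P2ry1, Casr, Sstr3 and Chrm3 stay below 0 throughout, and the bars of Gipr and Gcgr reach from negative to positive values.

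The marker lists, like the receptors, were chosen with earlier results of these data known. For several cell types, the markers had log2 fold changes mostly of the same sign within a list. How these values relate to the receptors was not tested beyond the covariate fits that follow. No member of the marker lists passed edgeR after adjustment. DESeq2 called 9 endothelial, 2 duct, 2 stellate and 1 α-cell marker higher, 1 β-cell marker lower, and 1 macrophage marker in each direction. Among all 14237 genes with a DESeq2 adjusted p, 160 were called higher and 54 lower. The edgeR background before adjustment (p under 0.05) was 8.70% of tested genes on the higher side and 4.66% on the lower side. Negative fold changes made up 47.2% of tested genes. Of 15 β-cell markers, 13 had a negative log2 fold change (median -0.20), 6 with an edgeR p under 0.05 before adjustment, and their summed level ran from 99840 to 158641 CPM in BKO and from 123745 to 155192 CPM in Cre. All 10 α-cell markers were positive (median 0.40), 8 with an edgeR p under 0.05 before adjustment, with sums of 12550 to 25475 CPM in BKO and 9292 to 14628 CPM in Cre. All 5 δ-cell markers were positive (median 0.31), with sums of 1451 to 2197 CPM in BKO and 1233 to 1907 CPM in Cre. All 16 endothelial markers were positive (median 0.44), 13 with an edgeR p under 0.05 before adjustment, with sums of 652 to 939 CPM in BKO and 511 to 734 CPM in Cre. Duct markers had 9 of 12 positive and stellate markers 11 of 12. Acinar markers had 11 of 12 tested positive, with sums of 1563 to 5501 CPM in BKO and 316 to 6979 CPM in Cre. Macrophage markers had 4 of 11 positive, pancreatic polypeptide and ghrelin cell markers 2 of 3, Schwann and neuron markers 4 of 8 and lymphocyte markers 1 of 2. No marker of these lists was at 0 in all libraries.

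With the mean log2 level of the β-cell markers as a covariate, the Glp1r fold change was -0.23, with an edgeR p of 0.00782 before and 0.458 after adjustment. P2ry1 was then -0.13, Casr -0.12 and Sstr3 -0.10, while Gcgr was 0.41 and Gipr 0.27, both without passing. With the endothelial markers as a covariate, Glp1r was -0.19 with an edgeR p of 0.0738 before adjustment, P2ry1 -0.12, Casr -0.12, Sstr3 -0.10, Gcgr 0.41 and Gipr 0.29. Gpr119 was 0.17 with the β-cell and 0.16 with the endothelial markers. With 1 surrogate variable it was -0.20 for Glp1r, with an edgeR p of 0.0469 before adjustment, -0.14 for P2ry1, -0.06 for Casr and -0.11 for Sstr3. With the acinar markers as a covariate, Casr was -0.10 and its edgeR p before adjustment was 0.135. The β-cell, endothelial and acinar scores had different group means, so the fits with them also take up part of the genotype difference. What share of the receptor differences goes with cell composition was not tested beyond these fits.

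**Figure D4:**
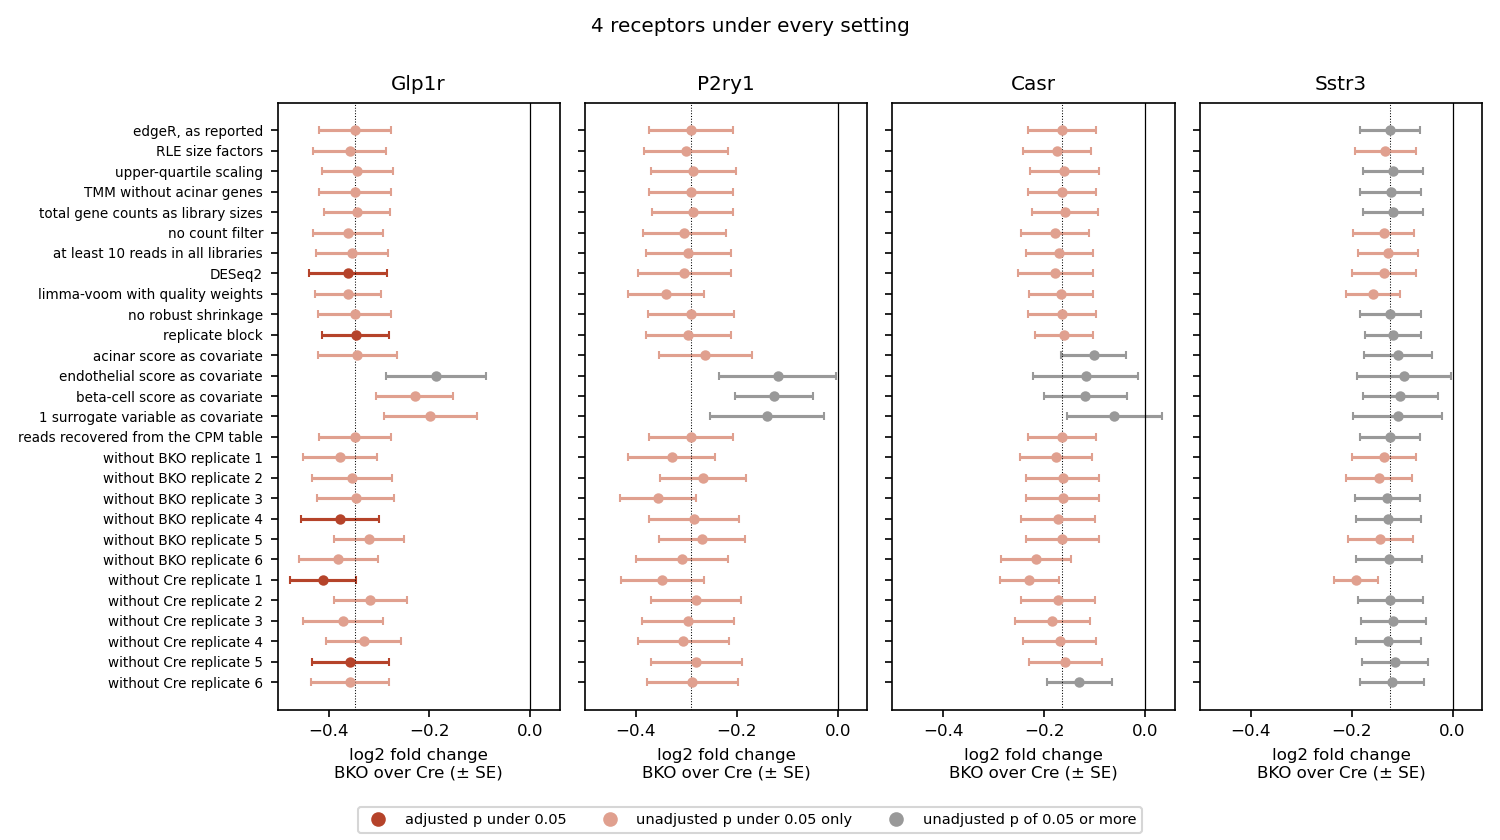
Log2 fold change, BKO over Cre, of Glp1r, P2ry1, Casr and Sstr3 (horizontal axes, ± SE) under the reported test and 27 alternatives (rows), with the colour giving the p class. All 4 stay negative in every row, and Glp1r, at -0.41 to -0.19, is the one with an adjusted p under 0.05 in any row.

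The receptors did not vary as a single block. Correlations were computed over the 12 libraries on log2 CPM with the genotype means subtracted. They describe these libraries and carry no test, and they share each library's RNA, composition and depth. Of 45 receptor pairs, Gipr and Gcgr were the closest, with Pearson's r = 0.91 and Spearman's rho = 0.85. The pair gave r = 0.94 within BKO and 0.76 within Cre, and 0.82 without BKO-1 and BKO-4, the extreme libraries of Gipr. Gcgr and Ffar1 followed (r = 0.74), at 0.90 within BKO and 0.16 within Cre. Gpr119 and P2ry1 had r = 0.65, at 0.81 within BKO and -0.46 within Cre, so that the relation was not seen in the Cre libraries. Glp1r was closest to Casr (r = 0.60), which dropped to 0.13 without Cre-1 and BKO-5.

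**Figure D5:**
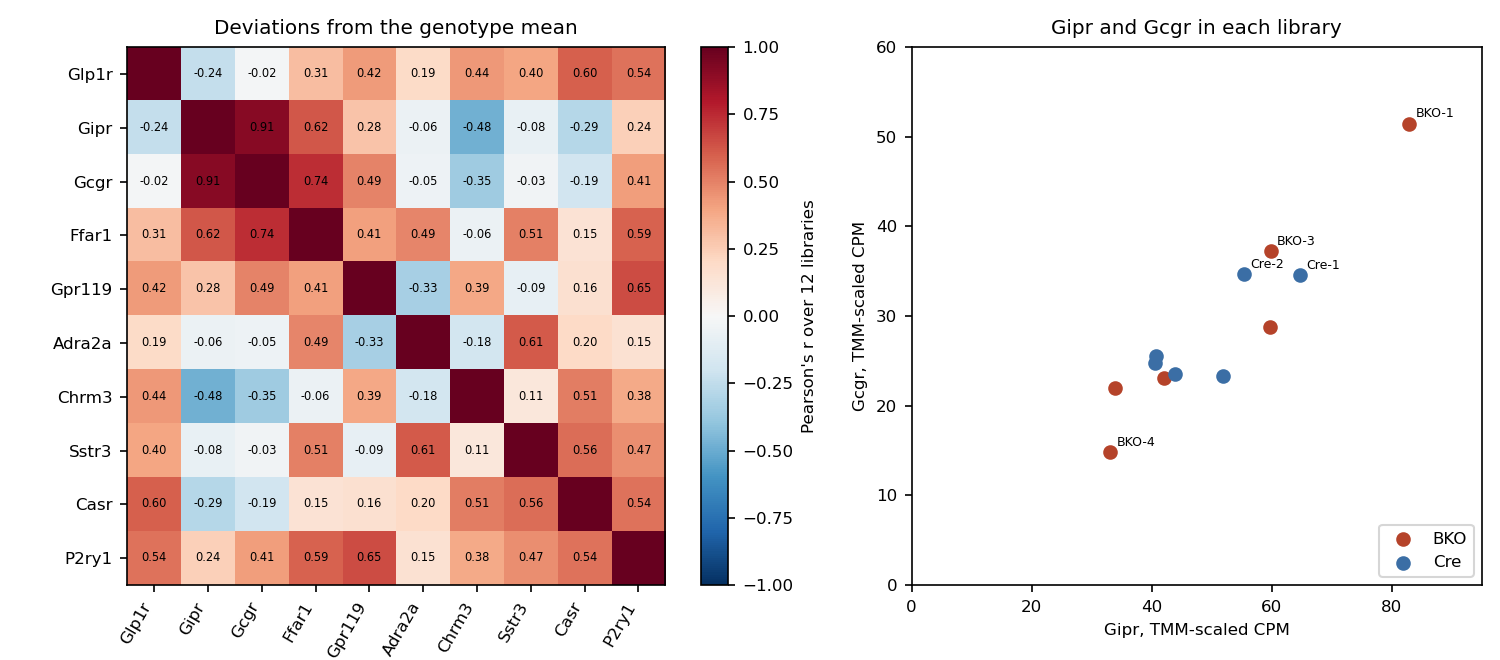
Left, Pearson's r between receptors over 12 libraries after subtracting the genotype means. Right, Gipr against Gcgr in each library (both axes TMM-scaled CPM), where BKO-1 is highest and BKO-4 lowest on both axes.

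The mean level of the β-cell markers varied with some receptors more than with others. It had r = 0.80 with P2ry1 and with Gpr119, 0.63 with Ffar1, 0.61 with Glp1r and 0.59 with Gcgr. The r was 0.45 with Gipr, 0.28 with Casr, 0.15 with Sstr3, 0.14 with Chrm3 and 0.06 with Adra2a. Other marker lists also reached such sizes. P2ry1 had r = -0.77 with duct, Adra2a 0.71 with macrophage, Casr -0.63 with acinar and Glp1r -0.56 with endothelial markers. The genes most like each receptor were sought among 9903 expressed genes by the same measure. Each was picked for a high r among that many genes over 12 libraries. Part of its size therefore reflects the selection, and no test was made. Spearman's rho of the genes named here ran from 0.80 to 0.96. Gcgr was closest to Mlxipl (r = 0.97), the glucose-responsive transcription factor ChREBP, and Gpr119 to Klhl7 (0.97) and Dpp4 (0.94), the peptidase that degrades the incretins. Gipr was closest to Syne4 (0.95) and Inha (0.94), Ffar1 to Smpd2 (0.94), and Glp1r to Kctd12 (0.91). Casr was closest to Endov (0.92), Chrm3 to Bbx (0.90), Sstr3 to Fam206a (0.89), Adra2a to Sun1 (0.89) and P2ry1 to Best3 (0.88).

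A list of 13 hormone and neuropeptide genes of the islet and its nerves, with Slc17a9, a nucleotide transporter, was described next. It holds ligands of these receptors (Gcg, Gip and Sst) beside peptides that act on others, so its counts do not describe the ligands alone. Of the 14 genes, 11 were tested, 7 with a positive and 4 with a negative log2 fold change (median 0.12). By edgeR 0 were called, and 3 higher and 1 lower had a p under 0.05 before adjustment. Over all genes tested, 8.70% were higher and 4.66% lower at such a p, and 47.2% had a negative fold change. Gcg, whose product gives glucagon and GLP-1, averaged 17144 ± 4290 CPM in BKO against 11508 ± 1689 CPM in Cre (± SD over 6 libraries), or 0.58 ± 0.15 (SE) on the log2 scale (edgeR adjusted p = 0.159, DESeq2 adjusted p = 0.0520). Sst, encoding the Sstr3 ligand somatostatin, averaged 1738 ± 273 CPM in BKO and 1379 ± 220.1 CPM in Cre, at 0.33 ± 0.12 (edgeR adjusted p = 0.245) and at 0.18 with the endothelial score as a covariate. These 2 hormones also stand in the α- and δ-cell marker lists above. Vip, a neuropeptide acting on receptors of the same family as Gcgr, averaged 3.23 ± 2.71 CPM in BKO and 0.771 ± 0.418 CPM in Cre. Its libraries ran from 1.22 to 8.13 CPM in BKO and from 0.0828 to 1.28 CPM in Cre, the lowest being under 3 reads. The log2 fold change of Vip was 2.06 ± 0.56 (SE; edgeR adjusted p = 0.169), and 1.01 with 1 surrogate variable as a covariate. DESeq2 called Vip higher (adjusted p = 0.0133). Slc17a9, which loads nucleotides into granules, averaged 26.0 ± 3.30 CPM in BKO and 29.9 ± 3.52 CPM in Cre, at -0.20 ± 0.093 (edgeR adjusted p = 0.354). Gip had 0 reads in all 12 libraries, which at the limit of 3 reads allows up to 0.284 CPM in any library.

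Other receptors of the islet were listed beside these. Of 57, 30 were tested, 14 with a positive and 16 with a negative fold change (median -0.01). Neither edgeR nor DESeq2 called any, and 3 higher and 1 lower had an edgeR p under 0.05 before adjustment. The shares of all genes tested were 8.70% higher and 4.66% lower, with 47.2% negative in fold change. Adgrg1 (GPR56), an adhesion receptor, averaged 255 ± 20.6 CPM in BKO and 290.0 ± 23.1 CPM in Cre, at -0.19 ± 0.064 (edgeR adjusted p = 0.222). On the positive side were P2ry2 (0.76 ± 0.26, adjusted p = 0.224 by edgeR), the fatty acid receptor Ffar4 (0.36 ± 0.14, 0.265) and the adenosine receptor Adora2a (0.28 ± 0.11, 0.300). With the endothelial score as a covariate P2ry2 stood at 0.05, Ffar4 at 0.27 and Adora2a at -0.0011, against -0.20 for Adgrg1. Sstr2 (0.45 ± 0.23) and P2ry12 (-0.34 ± 0.17, -0.12 with that score) were the next by p.

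Downstream of Gs, all 35 genes of the cyclic AMP arm were tested, 22 positive and 13 negative (median 0.04). Of these, 6 were higher and 2 lower at an edgeR p under 0.05 before adjustment. For this list and the cyclic AMP-induced genes below, the shares of all genes tested were 8.70% higher and 4.66% lower. Of all genes tested, 47.2% were negative. Rapgef3 (Epac1), a cyclic AMP-gated exchange factor, averaged 12.4 ± 2.06 CPM in BKO and 8.92 ± 1.38 CPM in Cre, at 0.47 ± 0.13 (edgeR adjusted p = 0.156). With the endothelial score as a covariate Rapgef3 stood at 0.14. All 6 BKO libraries exceeded all 6 Cre libraries, as in 0.331% of all genes tested, and the exact permutation p for Rapgef3 was 0.00216, the smallest this test can give. The adenylyl cyclases Adcy1 (0.86 ± 0.25) and Adcy4 (0.50 ± 0.16) and the phosphodiesterase Pde1c (0.25 ± 0.087) were the next by p. With the endothelial score as a covariate Adcy4 stood at 0.06, Adcy1 at 0.91 and Pde1c at 0.28. Of 15 genes that cyclic AMP is known to induce, 14 were tested, 12 positive and 2 negative (median 0.21), with 4 higher at a p under 0.05 before adjustment. Those 4 were Dusp1 (0.22 ± 0.089), Sik1 (0.22 ± 0.10), Ppargc1a (0.49 ± 0.23) and Nr4a1 (0.27 ± 0.13), with edgeR adjusted p of 0.293 to 0.369. With the endothelial score they stood at 0.12, 0.09, 0.48 and 0.09.

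Among 16 genes of the inhibitory arm, 15 were tested, 9 positive and 6 negative (median 0.10). Of these, 5 were higher and 2 lower at an edgeR p under 0.05 before adjustment. For each list of this paragraph, the shares of all genes tested were 8.70% higher and 4.66% lower. Of all genes tested, 47.2% were negative. Rgs4, which speeds the shut-off of G proteins, averaged 674 ± 85.2 CPM in BKO and 530 ± 79.5 CPM in Cre, at 0.35 ± 0.10 (edgeR adjusted p = 0.179). The G protein-gated potassium channel subunits had fold changes of opposite sign, with Kcnj6 at 0.39 ± 0.12 and Kcnj5 at -0.77 ± 0.26, and Rgs7 stood at 0.19 ± 0.075. With the endothelial score Kcnj6 stood at 0.15 and Kcnj5 at -0.62. Of 22 genes of the Gq and phospholipase C arm, 21 were tested, 8 positive and 13 negative (median -0.04), and 1, the Gq-class subunit Gna14, had a p under 0.05 before adjustment. Gna14 averaged 5.47 ± 0.724 CPM in BKO and 3.67 ± 0.776 CPM in Cre, at 0.57 ± 0.16 (edgeR adjusted p = 0.168). The next by p were Itpr3 (0.16 ± 0.094), Prkd1 (-0.24 ± 0.14) and Rgs2 (0.18 ± 0.12), which stood, in this order, at 0.08, -0.08 and 0.15 with the endothelial score. Of 14 genes that desensitise, escort or traffic receptors, 7 were positive and 7 negative (median 0.01). Arrb1, encoding β-arrestin 1, stood at 0.39 ± 0.14 (edgeR adjusted p = 0.254), the receptor chaperone Ramp3 at 0.35 ± 0.16, the kinase Grk5 at -0.15 ± 0.077 and Sorcs1 at 0.35 ± 0.22. With the endothelial score Arrb1 stood at 0.07 and Ramp3 at 0.06, and with the β-cell score at 0.12 and 0.16. edgeR called 0 genes of these 5 downstream lists after adjustment, and so did DESeq2. Of the 30 genes named from the pathway lists, 14 had a fold change smaller by over 1.5 times in size with the endothelial score as a covariate. Values with that score not given above were 0.63 for Gcg, 2.05 for Vip, -0.14 for Slc17a9 and 0.56 for Sstr2. Rgs4 stood at 0.27, Rgs7 at 0.32, Gna14 at 0.40, Grk5 at -0.15 and Sorcs1 at 0.30. The genes were named for a small p, and the score had different group means. No such count was made over all genes, and the cause was not tested.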

How the data were processed

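Total RNA of islets from 6 BKO and 6 Cre samples was extracted with TRIzol and sequenced as paired-end libraries (VAHTS Universal kit, NovaSeq), per the labels' protocols. The submitters' processing notes name HISAT2 2.0.5, HTSeq and mm10. Not given in the sources used here are the annotation, the HTSeq version and whether strand was used. The authors deposited, for each sample, raw read counts of 24421 gene symbols and 5 summary lines, which entered neither library sizes nor tests. They held, in the 12 libraries, 16.7% to 27.3% of counted reads as low alignment quality. A second deposited table covers the whole series and holds the authors' CPM, with columns that sum to 1e+06. Its values came out as whole reads (100%, tolerance 0.001 reads), equal to the counts for its 24420 genes, and the count test on them called 0 genes. Pairs of replicates differed by more than sampling noise, at 4.84 to 28.3 in chi-square over degrees of freedom.

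Counts were tested with edgeR 4.0.16 in R 4.3.3 (filterByExpr, TMM, robust quasi-likelihood fit, Benjamini-Hochberg over 13583 genes at 0.05), and the receptors were read out of that table. The biological coefficient of variation was 11.7%. The steps were tested on simulated data. CPM in the text are TMM-scaled. Lengths and coordinates are from GENCODE M21 for GRCm38, which is mm10, and promoter windows from RefSeq. Correlations and marker scores use log2(CPM + 0.5). The floor of 3 reads covers counting error only.

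The 10 receptors, the pathway lists and the marker lists were chosen with earlier results of these data known. The named genes are all receptors, the list members with the smallest edgeR p (at most 4 per list, 6 for other receptors), and the genes with the highest r to each receptor among those with a mean log2 CPM of at least 3 (up to 3 each, fewer printed). Alternatives were other scalings and filters, DESeq2 1.42.0, limma-voom (limma 3.58.1), the replicate number as a block, marker scores or a surrogate variable (sva 3.50.0) as covariates, and each library left out.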

Additional observations from a re-analysis of the deposited data

Results flagged for a closer look

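Of 20 groups screened (10 receptors in BKO and in Cre), 1 had a library far from the other 5. Sstr3 in Cre-1 stood at 192 CPM, where the other Cre libraries ran from 237 to 251 CPM, and its gap to the nearest of them was 77.1% of the group's range. Chance flags about 1 in 20 groups of this kind. Cre-1 is also the library with 27.3% of counted reads in the low-alignment-quality class, and whether that share bears on its Sstr3 level was not tested.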

How the results depend on the processing

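The log2 fold changes of Glp1r (-0.41 to -0.19), P2ry1 (-0.36 to -0.12), Casr (-0.23 to -0.06), Sstr3 (-0.19 to -0.10) and Chrm3 (-0.09 to -0.01) kept their sign in all 27 alternatives. The edgeR adjusted p of Glp1r ran from 0.0259 to 0.347 when 1 library was left out. DESeq2 called 214 genes (160 higher and 54 lower), 1 of them a receptor, Glp1r, where edgeR called 0. With a library left out, 0 to 262 genes and 0 to 1 receptors were called. The count was 262 without BKO-4, 110 without Cre-5, 6 without Cre-1 and 5 without BKO-3, and Glp1r was the receptor called without BKO-4, Cre-1 or Cre-5. With the replicate number as a block, 364 genes were called, among them 1 receptor, Glp1r (adjusted p = 0.0175), and 7 named pathway genes (Gcg, Vip, Sst, Adgrg1, Rapgef3, Adcy1 and Rgs4). Same-numbered libraries correlated at -0.07 to 0.26. As 2 of the 6 pairs lay below 0.1 and the labels give the numbers no meaning, they were not taken as a pairing, although 4 of 6 BKO libraries were closest to their own number, a hint from the data of something shared. Receptors with an edgeR p under 0.05 before adjustment numbered 3 in the reported test, 1 with the β-cell score or the surrogate variable as a covariate, and 0 with the endothelial score.

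Signs turned for receptors near 0. limma-voom gave -0.088 for Gipr and -0.083 for Gcgr, and the surrogate variable -0.15 and -0.094, with 0.0044 for Gpr119 and 0.066 for Adra2a. With 1 library left out, Gipr ran from -0.12 (without BKO-1) to 0.15 and Gcgr from -0.15 (without BKO-1) to 0.22. Adra2a ran from -0.078 to 0.031, above 0 without BKO-1, BKO-6, Cre-2 or Cre-4. The endothelial score gave 0.025 for Ffar1, 0.16 for Gpr119 and 0.023 for Adra2a, and the β-cell score 0.073, 0.17 and 0.012. Adora2a was -0.0011 with the endothelial score and -0.052 with the surrogate variable, with which Itpr3 was -0.034 and Prkd1 0.13. The cause was not tested in any of these. The coding length from a RefSeq protein table was not run. GENCODE lengths and the recovered reads were added after seeing the data. Reads per receptor and library ran from 161 (Gpr119) to 3565 (Glp1r), so relative counting error was larger for receptors with few reads.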
